A study of Drosophila melanogaster with 2 samples.

Results

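The genes described here encode the G protein-coupled receptors of Drosophila melanogaster neuropeptides and peptide hormones. A fixed list of 36 receptor genes was taken by name, from AstA-R1 to Pdfr, out of 13945 protein-coding genes on the chromosome arms that carry peaks, and each was looked up for binding of scratch (scrt). Scrt belongs to the Snail family of zinc-finger proteins, which repress or activate transcription, and is known from developing neurons. Its binding was profiled by chromatin immunoprecipitation and sequencing (ChIP-seq) in whole embryos of mixed sex, 4 to 24 h old, from a transgenic line that stably expresses scrt with GFP at its C terminus. All the data come from 1 group with 2 biological replicates, numbered 3 and 4 in the labels; both carry the transgene. Whole embryos mix all tissues, so a peak cannot be assigned to a cell type. A text field in the labels describes both libraries as input controls, but their antibody field names scrt, and they were taken here as scrt immunoprecipitations.

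Neuropeptides are cut from larger precursors, released by neurons and endocrine cells, and read by receptors on target cells. Most of these receptors have the rhodopsin-like fold. The receptors of Dh31, Dh44 and the clock peptide PDF are secretin-like, and Lgr1, Lgr3 and rickets (rk) carry leucine-rich repeats and bind larger protein hormones. Through G proteins the receptors change cAMP or calcium in the target cell, and in the fly they act in feeding, water balance, moulting, muscle contraction and sleep. Many exist as a pair of paralogues for 1 peptide.

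Several receptor peaks held the same short words of sequence, and 7 are shown because the results on sequence and on paralogues turn on them. Each is 121 bases of assembly dm6, plus strand, 5′ to 3′, read from the RefSeq copy of the assembly and centred on the peak summit. None of the 7 summits lies in an annotated exon. Capitals mark the longer Snail-type E-box CAACAGGTG and the word GCAACA on either strand, so that CACCTGTTG and TGTTGC are their reverse complements. CNMaR (chr3L:9643913-9644033, gene on the plus strand) held 1 copy of each.
CNMaR: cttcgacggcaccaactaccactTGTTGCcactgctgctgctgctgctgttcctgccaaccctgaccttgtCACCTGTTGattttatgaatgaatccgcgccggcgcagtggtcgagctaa
The rk window (chr2L:14002031-14002151, gene on the minus strand) held both as 1 overlapping run of letters.
rk: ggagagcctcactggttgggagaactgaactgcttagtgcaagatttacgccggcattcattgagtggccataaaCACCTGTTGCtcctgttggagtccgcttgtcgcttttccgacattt
The window in intron 1 of AstC-R2 (chr3L:18492841-18492961, gene on the minus strand) held the E-box alone.
AstC-R2: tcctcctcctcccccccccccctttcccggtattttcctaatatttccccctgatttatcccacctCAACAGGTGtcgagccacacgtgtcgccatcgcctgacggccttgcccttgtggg
RYa-R (chr3R:26996771-26996891, gene on the plus strand) held 5 copies of GCAACA, some of them overlapping.
RYa-R: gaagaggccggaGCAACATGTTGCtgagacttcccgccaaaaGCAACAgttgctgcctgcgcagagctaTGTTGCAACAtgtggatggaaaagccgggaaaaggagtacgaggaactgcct
The stronger of the AstA-R1 summits (chrX:3573991-3574111, gene on the plus strand) held 2 copies.
AstA-R1: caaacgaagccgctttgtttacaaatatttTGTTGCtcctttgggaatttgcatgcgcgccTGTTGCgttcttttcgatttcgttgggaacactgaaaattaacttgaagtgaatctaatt
The myosuppressin receptor paralogues differed, with 1 copy at MsR2 (chr3L:2282585-2282705) and 0 at MsR1 (chr3L:2322409-2322529); both genes are on the plus strand.
MsR2: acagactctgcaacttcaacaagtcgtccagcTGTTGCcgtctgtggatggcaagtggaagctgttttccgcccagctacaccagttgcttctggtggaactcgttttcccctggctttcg
MsR1: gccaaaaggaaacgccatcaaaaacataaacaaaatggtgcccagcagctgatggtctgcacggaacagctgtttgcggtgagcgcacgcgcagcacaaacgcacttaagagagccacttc

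The peptide receptor genes were bound by scrt-GFP at their start sites in 18 of 36 cases (50%), against 25.6% of all protein-coding genes. A gene was called bound where a summit of the optimal peak list lay within 1000 bp of any annotated transcription start site (TSS). That list, derived from both replicates, holds the peaks that the authors kept by a threshold on the irreproducible discovery rate (IDR). Receptor genes are long, with a median of 17378 bp against 2166 bp over all protein-coding genes. Among the 4955 protein-coding genes within the length range of the receptor genes (3208 to 92189 bp), 39.5% were bound. That range runs from the shortest to the longest receptor gene and is not a match for length, so the part of length in the share was not settled. Of the 36 receptor genes, 28 have 1 annotated TSS, 6 have 2 and 2 have 3. No test was run on the list as a whole, since it was drawn up with earlier results of these data known.

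The bound receptor genes ranged from some of the strongest peaks of the list to weak ones, with a median above that of all bound genes. Peak signal is the authors' own enrichment value, which runs from 193.1 to 10012.8 in the optimal list, and rank 1 is the strongest peak. The strongest TSS peak of the 18 bound receptor genes had a median signal of 746.7 (quartiles 471.4 and 1792), against 423.4 (277.6 and 790.8) over the 3570 bound protein-coding genes. Of the 18, 5 lay below that median of 423.4: CCHa1-R (401), NPFR (379), rk (350), TkR99D (333) and CCKLR-17D1 (247). The median rank of that peak was 1063 at receptor genes and 2312 over all bound genes. Of the 36 receptor genes, 8 had a TSS peak among the 500 strongest, against 3.45% of all protein-coding genes. These were CNMaR, Dh44-R2, MsR2, CCHa2-R, sNPF-R, Dh44-R1, AstA-R1 and Dh31-R. Gene length was not taken into account in these medians and shares. Read depth is unknown, so no interval for sequencing error can be given for these values.

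**Figure D1:**
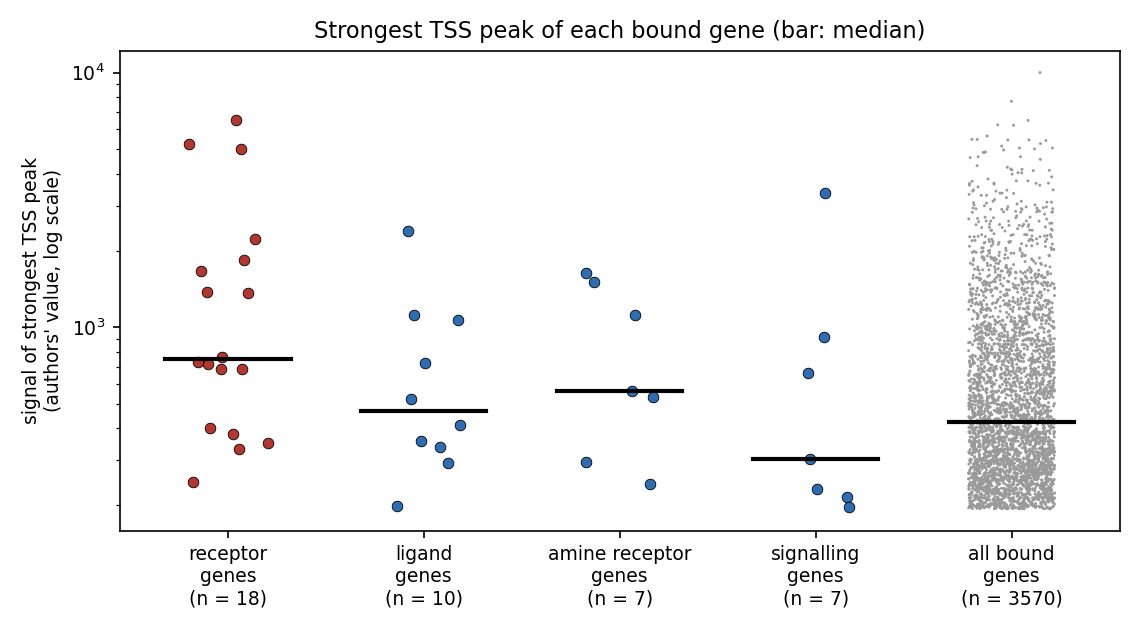
Signal of the strongest peak within 1000 bp of a TSS for each bound gene (points) with the median (bar), by gene list, on a log axis. The 18 receptor genes run from 247 to 6493 with a median of 746.7, against 423.4 over all 3570 bound genes.

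All 20 summits at the start sites of the 18 bound receptor genes lay upstream of the TSS. Over all bound protein-coding genes, the strongest TSS summit was upstream in 74.5%. The distance of that summit was a median of 161 bp at receptor genes and 174 bp over all bound genes. The closest summits were 3 bp upstream at NPFR, 14 bp at CCKLR-17D1 and 17 bp at sNPF-R. The farthest were 843 bp at rk, 704 bp at Dh31-R and 578 bp at CCHa1-R. Most of these summits were intergenic, and that of CNMaR lay in an intron of fry, a larger gene that spans its promoter. The side depends on where the annotation places the start of each transcript.

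**Figure D2:**
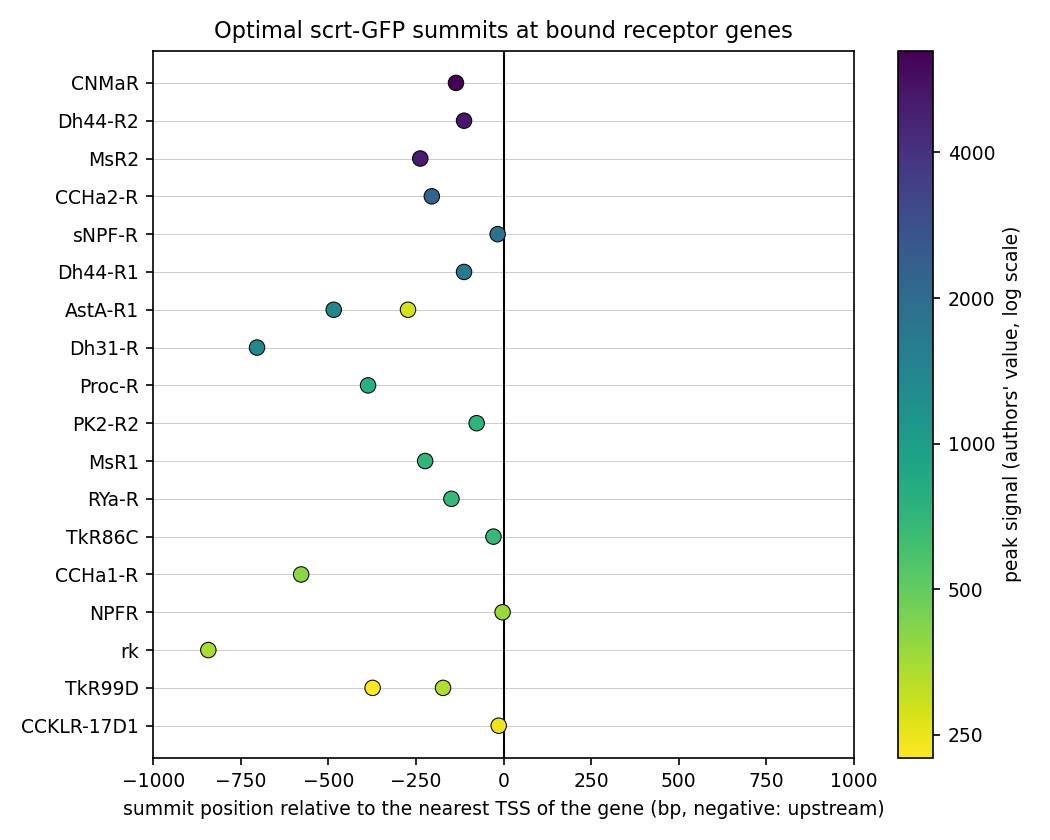
Position of each optimal summit within 1000 bp of the nearest TSS of its receptor gene, in bp, with genes ordered by their strongest peak and colour giving peak signal on a log scale. All 20 summits lie left of the TSS, from 3 to 843 bp upstream, and the 3 strongest lie between 113 and 238 bp upstream.

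For most bound receptors the gene's own TSS was the nearest one. This held for 16 of the 18 strongest summits, against 71.8% of all bound protein-coding genes. At CCHa1-R the summit lay 578 bp from the receptor TSS but 32 bp from that of eIF3c, a translation initiation factor gene that starts nearby. At AstA-R1 the stronger summit was 485 bp from the receptor TSS and 429 bp from that of CG2875, while the weaker one, 273 bp away, was nearest to AstA-R1. Peaks at these shared intervals cannot be assigned to 1 gene by position.

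Of the 4 secretin-like receptor genes, 3 were bound. Dh44-R2, a receptor of the corticotropin-releasing factor-like hormone Dh44, had a peak of signal 5264 at chr2R:12474089-12474579 with the summit 113 bp upstream. It ranked 14 in the optimal list, 19 in replicate 3 and 11 in replicate 4. The peak of its paralogue Dh44-R1, at chr2R:14377747-14378230, had signal 1661 and also lay 113 bp upstream. It ranked 273 in the optimal list, 231 in replicate 3 and 385 in replicate 4. Both receptors of Dh44 were thus bound, with the higher signal at Dh44-R2. Dh31-R, the receptor of a calcitonin-like diuretic hormone, had signal 1357 at chr2R:13295951-13296878 and ranked 411, with 244 in replicate 3 and 862 in replicate 4. Pdfr, the receptor of the clock peptide PDF, was unbound, with the nearest optimal summit 9787 bp from a TSS.

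Among the receptors of neuropeptide F and related peptides, all 3 were bound. The peak of sNPF-R, whose ligand short neuropeptide F is known to promote feeding, had signal 1835 at chr3L:20088787-20089207. It ranked 236 in the optimal list, 200 in replicate 3 and 294 in replicate 4. RYa-R, the RYamide receptor gene, had signal 684 and rank 1212 (1136 in replicate 3 and 1341 in replicate 4). NPFR, the neuropeptide F receptor gene, had signal 379 and rank 2674 (3194 in replicate 3 and 2329 in replicate 4). The NPFR summit lay 3 bp from its TSS (chr3R:6187179-6187398). The 3 genes thus shared binding at the start site but not its strength.

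Both tachykinin-like receptor genes were bound at modest strength. TkR86C, which encodes the natalisin receptor, had signal 682 at rank 1220 (1024 in replicate 3 and 1580 in replicate 4), with the summit 29 bp upstream. TkR99D, the receptor of the gut and brain tachykinins, had 2 summits 173 and 374 bp upstream, with signals of 333 and 224. Both TkR99D peaks matched a single peak of replicate 4, of rank 5109, while replicate 3 had separate peaks of rank 2547 and 7257. Of the cholecystokinin-like receptors, which bind the satiety peptide drosulfakinin, CCKLR-17D1 had the weakest of the 18 leading receptor peaks, with signal 247 and rank 4735. CCKLR-17D1 ranked 4293 in replicate 3 and 6071 in replicate 4. Its paralogue CCKLR-17D3, on the same strand 37910 bp away, was unbound.

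The CCHamide and myosuppressin receptors were bound as pairs with unequal signals. CCHa2-R, a receptor with a known part in nutrient signalling to the insulin-producing cells, had signal 2217 at chr2R:6050516-6051073 (rank 159; 128 in replicate 3 and 219 in replicate 4). CCHa1-R had 401 (rank 2454), and ranked 2845 in replicate 3 and 2544 in replicate 4. Among the receptors of myosuppressin, a peptide known to inhibit visceral muscle, MsR2 had signal 5018 at chr3L:2282392-2282931 and MsR1 had 714 at chr3L:2322241-2322618. MsR2 ranked 18 in the optimal list, 15 in replicate 3 and 24 in replicate 4, and MsR1 ranked 1135, 1065 and 1342 in the same lists. The genes are tandem neighbours, 21748 bp apart, and their summits lay 238 and 224 bp upstream.

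Of the 4 allatostatin receptor genes only AstA-R1 was bound at its TSS. AstA-R1, a galanin receptor-like gene for allatostatin A, had summits of signal 1372 and 281 inside a peak region the authors give the same bounds (chrX:3573876-3574280). The stronger ranked 265 in replicate 3 and 692 in replicate 4. The weaker ranked 1651 in replicate 3 but 25764 in replicate 4, the widest disagreement among the receptor peaks. AstA-R2 was unbound, with its nearest optimal summit 48516 bp away. AstC-R1 and AstC-R2, the somatostatin receptor-like genes for allatostatin C, were both unbound at the TSS, and AstC-R2 had the intronic summit shown above (signal 308, rank 3567).

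Of the pyrokinin and capa receptors, PK2-R2 alone was bound. PK2-R1 and PK2-R2, receptors of the hugin peptide, lie head to head with 4163 bp between the genes. The peak of PK2-R2 had signal 727 at rank 1108 (1012 in replicate 3 and 1278 in replicate 4). Its summit lay 77 bp upstream of PK2-R2 and 4087 bp upstream of PK2-R1. The other unbound genes of this group were PK1-R, whose nearest optimal summit was 4070 bp away and nearer to CG9920, and CapaR. Among leucine-rich repeat receptors, rk, the bursicon receptor needed for cuticle tanning, had a summit of signal 350 (rank 3005) 843 bp upstream. The rk peak ranked 2334 in replicate 3 and 4447 in replicate 4. Lgr1, a receptor of the glycoprotein hormone Gpa2/Gpb5, and Lgr3, the receptor of the growth-coordinating relaxin-like peptide Ilp8, were unbound.

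The remaining 10 receptor genes had 2 bound members, one of them the strongest of all. CNMaR, the receptor of CNMamide, had a peak of signal 6493 at chr3L:9643598-9644275, rank 5 in the optimal list, 4 in replicate 3 and 13 in replicate 4. Proc-R, the receptor of proctolin, a peptide that stimulates muscle, had signal 766 and rank 1018. It ranked 684 in replicate 3 and 1998 in replicate 4. AkhR, the adipokinetic hormone receptor that mobilises fat, was unbound, as were CCAP-R, ETHR, FMRFaR, Lkr, SIFaR, SPR and TrissinR.

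The calls were close to the window or list limit at few receptors. Just inside the 1000 bp window were rk at 843 bp and Dh31-R at 704 bp. Just outside it was SIFaR, the receptor of SIFamide, with a summit of signal 333 (rank 3206) 1158 bp upstream and 971 bp from the TSS of the long non-coding RNA gene lncRNA:Hsromega. Just below the list's lowest signal of 193.1 was CCAP-R, the receptor of crustacean cardioactive peptide, with a pooled peak of 191.8 at its TSS (rank 6453 of the pooled list).

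Weaker peaks lay at most of the unbound start sites. The pooled list of 30000 peaks includes background that the authors kept as input for IDR. In it 32 of the 36 receptor genes had a summit within 1000 bp of a TSS, against 45.8% of all protein-coding genes. Of the 18 unbound receptor genes 14 had such a peak, from rank 6453 at CCAP-R, 7595 at ETHR, 8301 at CCKLR-17D3 and 9105 at Lgr1 down to 27576 at Pdfr. PK1-R, CapaR, AkhR and Lkr had none. Whether these weaker peaks are binding or background was not tested, and gene length was not taken into account in the shares.

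Of the 12 paralogue or close-relative pairs, 5 had both members bound, 4 had one bound and 3 had none. Over the whole list 18 of 36 receptor genes (50%) were bound. Whether the pair counts differ from those of unrelated receptor genes was not tested. Both members were bound for Dh44-R1 and Dh44-R2, CCHa1-R and CCHa2-R, MsR1 and MsR2, TkR86C and TkR99D, and the more distant NPFR and sNPF-R. One member was bound in AstA-R1 and AstA-R2, CCKLR-17D1 and CCKLR-17D3, PK2-R2 and PK2-R1, and the secretin-like Dh31-R and Pdfr. The split pairs differed in how far apart their members were in the pooled list. AstA-R1 had 1372 and AstA-R2 67.8, Dh31-R 1357 and Pdfr 49.6, PK2-R2 727 and PK2-R1 126.6, and CCKLR-17D1 247 and CCKLR-17D3 154.7. The last pair thus fell on either side of the list's limit with a small gap. AstC-R1 and AstC-R2, Lgr1 and Lgr3, and CapaR and PK1-R had neither member bound. The bound rk, which also carries leucine-rich repeats, was in no pair, so these counts depend on the pairs chosen.

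**Figure D3:**
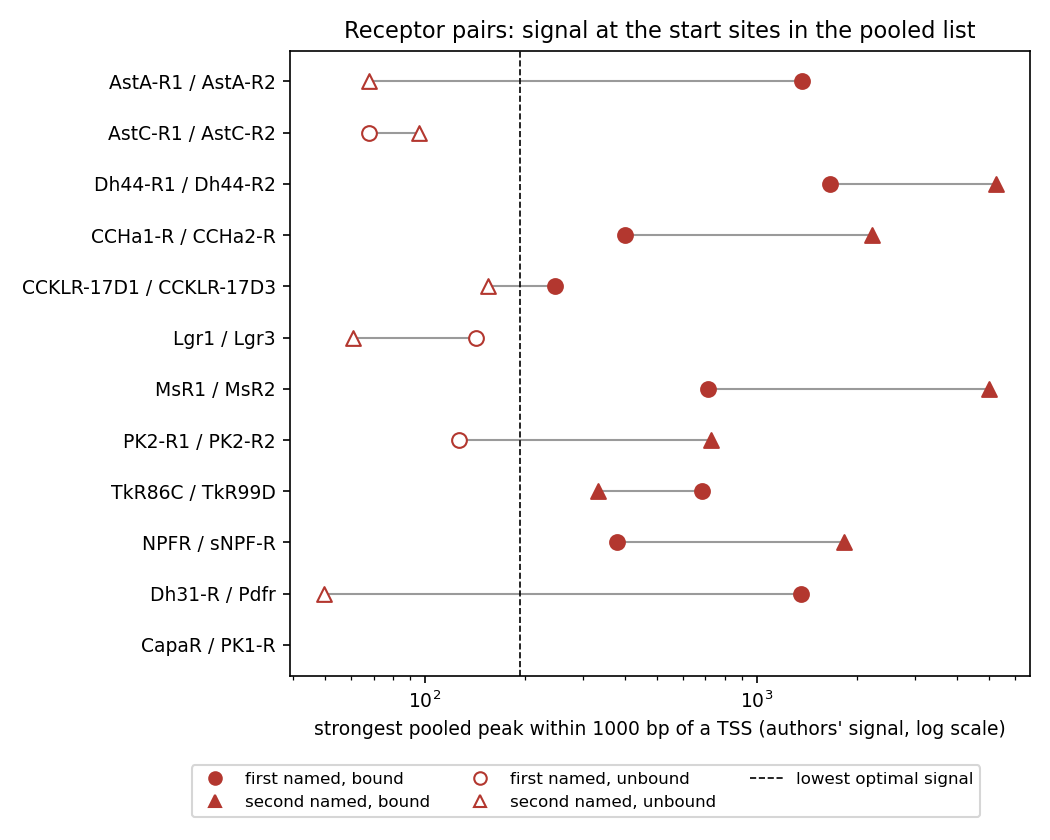
Strongest pooled peak within 1000 bp of a TSS for both members of the 12 receptor pairs, as the authors' signal on a log axis; circles are the first-named gene, triangles the second, filled where bound, and the dashed line is the lowest optimal signal, 193.1. Genes with no pooled peak at a TSS (both of CapaR and PK1-R) have no point, and MsR1 and MsR2 stand at 714 and 5018.

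Summits inside the receptor genes were fewer and weaker than those at start sites. Of the 36 receptor genes 7 had an optimal summit in the gene body, against 15.4% of all protein-coding genes and 33.8% of those in the same length range. These 8 summits had signals of 220.4 to 440.9, with none ranked above 2193. Introns held 7 of the 8, and 6 of these were in intron 1, with a position exonic in any transcript counted as exonic. The strongest was in Lkr, the receptor of the diuretic peptide leucokinin, 6252 bp inside the gene (chr3L:5522976-5523189). MsR2 (signal 383), CCHa2-R (313), Dh44-R1 (258) and AstA-R1 (230) had a body summit as well as a TSS peak. ETHR, the receptor of ecdysis triggering hormone, had 2 summits far into the gene, of signal 321 and 220. The first was in intron 4, and the second in a 3' UTR that is intron 4 in another transcript. Both were nearest to the TSS of asRNA:CR45798, 5381 and 2887 bp away. With the AstC-R2 summit, 3 of the 18 genes unbound at a TSS had a summit in the body, and 15 had neither.

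All 20 receptor TSS peaks overlapped a peak of each replicate's list of 30000, as did 96.7% of optimal peaks at all protein-coding TSSs. These lists include background, and the lowest match, at AstA-R1, was at rank 25764. The replicate 3 and replicate 4 summits both lay within 25 bp of the optimal summit at 16 of the 20 (80.0%), against 53.1% of 3318 matched optimal peaks at all protein-coding TSSs. The strongest TSS peak per bound gene had a higher median signal at receptors (746.7 against 423.4). The part of peak strength in the share within 25 bp was not tested. Of the 20, 16 ranked better in replicate 3 than in replicate 4, against 50% of the matched peaks at all TSSs. The exceptions were Dh44-R2, NPFR, CCHa1-R and the weaker TkR99D peak. Taking as many of the strongest peaks of a single replicate as the optimal list holds, 18 receptor genes were bound with replicate 3 (against 24.7% of all genes) and 19 with replicate 4 (against 27.4%). The gain with replicate 4 was ETHR. The optimal list was made from these same replicates, so this is not independent support for its peaks.

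**Figure D4:**
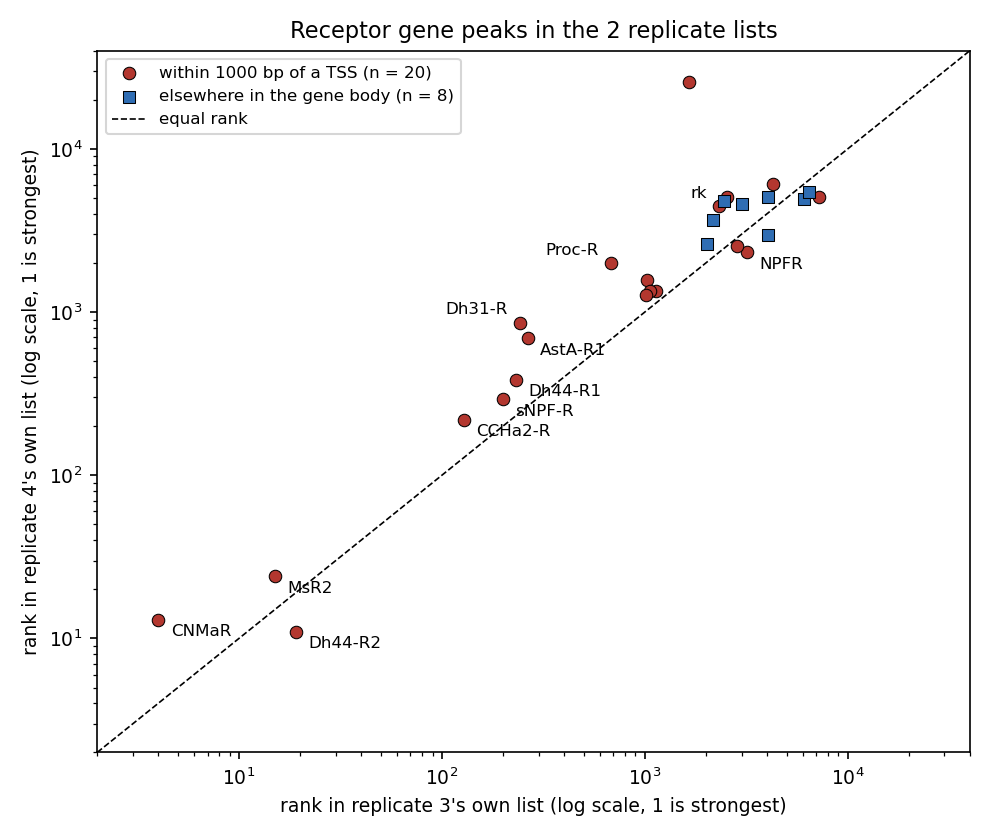
Rank of each receptor peak in the lists of replicate 3 (x axis) and replicate 4 (y axis), both on log scales with 1 the strongest; red circles are the 20 TSS peaks, blue squares the 8 gene-body peaks, and the dashed line marks equal rank. Most circles lie above the line, and the isolated circle at the top is the weaker AstA-R1 peak, at 1651 and 25764.

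GCAACA was present within 100 bp of the summit in 13 of the 20 receptor TSS peaks (65.0%), against 30.5% of the 3430 optimal peaks at protein-coding TSSs. Counted by gene, the strongest peak held it at 12 of the 18 bound receptors. RYa-R had 5 copies, TkR86C and CCKLR-17D1 3 each, and AstA-R1 and the stronger TkR99D peak 2. Those without it were Dh31-R, NPFR, sNPF-R, CCHa1-R, MsR1 and Proc-R. The median GC content of these windows was 49.3% at receptor TSS peaks and 40.3% over all TSS peaks, and its part in the share of GCAACA was not tested. Of the 15 receptor TSS peaks with at least 45% GC, 12 held GCAACA, against 43.8% of the 1163 such peaks at all protein-coding TSSs. The receptor peaks were also stronger, with a median signal of 746.7 against 423.4 for the strongest TSS peak per bound gene. The part of peak strength in these shares was not tested, and no test was run on the shares themselves.

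The E-boxes were rarer. CAGGTG, the core bound by Snail-family zinc fingers, was in 3 of the 20 receptor TSS peaks, against 8.08% of all TSS peaks. In each of these 3 it was part of the longer CAACAGGTG, which 1.69% of all TSS peaks held. They were Dh44-R1, rk and CNMaR, and the copy was centred 20, 19 and 15 bp from the summit. The intronic AstC-R2 summit held a further copy, centred 10 bp from the summit, so that 4 of the 28 receptor summits held CAACAGGTG, against 1.75% of all optimal peaks. Where CAACAGGTG follows a G the run also contains GCAACA, as it does at Dh44-R1 and rk, so the counts of these words are not independent. A match is a description of the sequence and does not show that the letters are bound.

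The genes of the ligands were bound in part. Of 32 peptide and protein hormone genes on the arms with peaks, 10 were bound (31.2%), with a median signal of 467.5, close to the 25.6% and 423.4 over all protein-coding genes. They have a median length of 2188 bp, against 17378 bp for the receptor genes. A further ligand gene, Gpa2, lies on an unplaced scaffold that carries no peaks and was not counted. The strongest was sNPF, with signal 2385 at rank 137, followed by AstC (1120), CCHa1 (1069), Dh44 (722), Dh31 (522), Proc (413), Mip (357) and Tk (337). Lk and AstCC were also bound, at 293 and 199. The strongest summits of all 10 lay upstream of the TSS, against 74.5% over all bound genes.

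Set beside each other, 7 of the 18 bound receptors and 4 of the 18 unbound ones had a bound ligand gene. Of all ligand genes 31.2% were bound, and no test was run on these counts. The 7 bound receptors were Dh31-R, Dh44-R1, Dh44-R2, sNPF-R, TkR99D, CCHa1-R and Proc-R, with Dh44-R1 and Dh44-R2 sharing the ligand gene Dh44. For short neuropeptide F the receptor gene had signal 1835 and the ligand gene 2385. The other 11 bound receptors had no bound ligand gene, among them CNMaR and MsR2, whose ligand genes CNMa and Ms had their nearest optimal summits 4116 and 22168 bp away. In 4 cases the ligand gene was bound and the receptor gene was not. They were AstC-R1 and AstC-R2 (AstC and AstCC), Lkr (Lk) and SPR, which binds the myoinhibitory peptides of Mip as well as sex peptide.

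Receptor genes for dopamine, serotonin, octopamine and tyramine, the most similar class, were bound in 7 of 17 cases (41.2%), against 25.6% of all protein-coding genes and 39.5% of those in the length range of the peptide receptor genes. Their strongest TSS peaks were at Dop1R1 (1637), DopEcR (1507) and 5-HT2B (1117), and then Oct-TyrR (559), 5-HT1B (529), Dop1R2 (295) and Oamb (242). The median signal was 559.5, and 6 of the 7 summits were upstream of the TSS. Gene-body summits were found in 11 of these 17 genes, which have a median length of 30277 bp, against 15.4% of all protein-coding genes and 33.8% of those in that length range. Of 16 genes that act downstream of the receptors, such as G protein subunits and kinases, 7 were bound (43.8%), against the same 25.6% and 39.5%; their median length is 18457 bp. Gprk2, a kinase that phosphorylates active receptors, had the highest signal of these (3362, rank 61), followed by the cAMP response factor gene CrebB (913), Galphas (659), norpA (304), Pka-R1 (230), Plc21C (215) and Itpr (196). The Gprk2 summit lay 574 bp upstream of its TSS but 69 bp from that of PNPase, so position does not assign this peak to Gprk2. No difference between these lists was tested.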

How the data were processed

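ChIP-seq was run on embryos of 1 group in 2 biological replicates. The deposited files are peak lists in narrowPeak format for assembly dm6. The authors, by the listing that accompanies the samples, called peaks against control alignments for each replicate and for their pool (30000 each, background included) and derived the optimal list from these by IDR. The sources used here do not name the caller, the aligner, the IDR threshold or the depth of reads. The deposited signal is scaled within a list, so lists were compared by rank. The authors' −log10 q-value was capped (4.02 for 81.3% of optimal peaks) and was left out. Summits came from the deposited offsets.

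TSSs and genes were those of Ensembl release 115, and all peaks fell within the chromosome ends of the reference. An optimal peak was matched to the overlapping replicate peak with the nearest summit. Motifs were searched on both strands within 100 bp of summits. The members, lists, pairs and the rule for named genes (all members, bound members of other lists up to 8 and ligands of bound receptors) were chosen with earlier results of these data known, so counts and medians are given beside the same over all genes, with no test. Lk and AstCC fall outside that rule and were named after their values were seen. Alternatives were other windows, thresholds, overlap and TSS rules, single replicates, motif windows and merged summits. The procedures were tested on simulated data. Computations used Python 3.11.15, numpy 2.4.6 and pandas 2.3.3.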

Additional observations from a re-analysis of the deposited data

How the results depend on the processing

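The count of bound receptor genes ran from 15 to 22 over 9 alternatives, against 18, and 14 genes were bound under all of them. Except where a percentage is given below, the share over all protein-coding genes was not counted under the alternatives. These counts therefore do not show whether the receptor share stays above that of all genes. A TSS window of 500 bp lost Dh31-R, rk and CCHa1-R, and a window of 2000 bp, or any part of a peak, gained SIFaR. Giving each summit only to its nearest TSS lost CCHa1-R, and keeping the optimal peaks above the median signal lost CCKLR-17D1. The 10000 best pooled peaks gained Lgr1, CCKLR-17D3, CCAP-R and ETHR. Without replicate 3 or without replicate 4 the count was 19 or 18, against 27.4% or 24.7% of all protein-coding genes. Alternatives chosen after seeing the data gave 8 with the 500 best optimal peaks and 32 with all pooled peaks, as their construction sets. The shares over all protein-coding genes were 3.45% and 45.8%. Receptor genes with a body summit numbered 2 with the optimal peaks above the median signal and 14 with the 10000 best pooled peaks, against 7. The count was also 14 when any overlap of a peak with the gene counted. That last rule also takes in TSS peaks whose bounds reach into the gene, and how many gains were of this kind was not counted. Amine receptor genes bound numbered 11 with the 10000 best pooled peaks, against 7. Pairs with one bound member ran from 3 to 5, against 4. GCAACA was found in 12 and 14 of the 20 peaks with windows of 50 and 200 bp, against 13. Merging summits within 500 bp left 26 of 28. No paired analysis was possible because there is a single group. Read depth is unknown, and its part in calls just below the list's limit was not tested.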

Other observations

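By chromosome arm, 5 of 5 receptor genes on 2R were bound, 4 of 9 on 3L, 5 of 13 on 3R, 3 of 6 on X and 1 of 3 on 2L. Over all protein-coding genes the counts were 698 of 2852 on 2R, 762 of 2739 on 3L, 943 of 3421 on 3R, 498 of 2196 on X and 657 of 2657 on 2L. The arm was looked at after the values were seen, and no test was run. Bound receptor genes had a median length of 18364 bp and unbound ones 13738 bp, against 4009 and 1863 bp over all protein-coding genes.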
